A study of Mus musculus with 2 samples.

Results

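The genes described here encode the WNT signalling pathway: the WNT ligands, the proteins that release them, their frizzled receptors and LRP co-receptors, secreted antagonists, R-spondins, the cytoplasmic transducers, the TCF/LEF nuclear factors and feedback targets. They were chosen by gene symbol alone, as all non-control probes named for a member of the ligand, receptor, antagonist, R-spondin and dishevelled families or for another listed pathway gene, which gave 65 genes on 83 probes among the 22128 genes and 55681 probes of the array. Messenger RNA was measured in 4T1 cells, a mammary carcinoma line derived from a BALB/c mouse, after sorting untreated cultures with the ALDEFLUOR assay into cells of high and low aldehyde dehydrogenase (ALDH) activity. ALDH-positive 4T1 cells were labelled as cancer stem cells and ALDH-negative cells as anti cancer stem cells, and the link between these sample names and the ALDH sort rests on the series design and on the use of high ALDH activity to define stem-like cells. Each population was measured on 1 array, so there was no replicate, no test was possible and every value below describes these 2 RNA samples. All cells came from this single line, and a difference in transcript level per cell cannot be told apart from a difference in the share of cells that carry the transcript.

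WNT ligands are lipid-modified proteins that bind a frizzled receptor together with LRP5 or LRP6. In the β-catenin branch this recruits dishevelled and Axin to the membrane, which halts the destruction of β-catenin and lets it join TCF/LEF factors on DNA, where *Axin2*, *Nkd1*, *Nkd2*, *Sp5*, *Rnf43*, *Znrf3* and *Notum* are switched on and act back on the pathway. Other ligands, *Wnt5a* among them, signal through frizzled and ROR receptors to cell polarity and movement. The pathway is known for its part in mammary stem cells and in mammary tumours of mice, where *Wnt1* was found as a target of viral insertion. The comparison asks which of these genes differed in level with the ALDH activity of the cells. Paired signals below are normalized intensities, the ALDH-negative value first and the ALDH-positive value after it.

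Of the 65 genes, 38 (58.5%) were measured, that is, at least 1 of their probes was well above the local background on at least 1 array, against 63.2% of all genes with a symbol, and 37 were above background in both populations. The 27 unmeasured genes were *Wnt2*, *Wnt2b*, *Wnt3*, *Wnt3a*, *Wnt4*, *Wnt6*, *Wnt8a*, *Wnt8b*, *Wnt9b*, *Fzd8*, *Fzd10*, *Ror1*, *Ror2*, *Rspo1*, *Rspo2*, *Rspo4*, *Dkk1*, *Dkk2*, *Dkk3*, *Dkk4*, *Sfrp2*, *Sfrp4*, *Sfrp5*, *Wif1*, *Axin2*, *Nkd1* and *Sp5*. All of the named Dickkopf inhibitors *Dkk1* to *Dkk4* and 3 of the 4 genes grouped as feedback targets were therefore without a usable level in either population. This is a statement about the probes and not proof that the transcripts were absent. The measured genes were 10 ligands, all 3 genes of ligand release or lipid removal, 8 frizzled receptors and both LRP co-receptors. The others were 3 genes of the R-spondin group, 2 antagonists, all 5 transducers, all 4 nuclear factors and 1 gene of the feedback group. For *Apc*, *Fzd2*, *Tcf7*, *Wnt1* and *Wnt16* only 1 of 2 probes was measured.

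A gene was called higher in ALDH-positive cells at a ratio of 1.5 or more with a Z-score of 2 or more, and lower at a ratio of 0.75 or less with a Z-score of -2 or less. The Z-score is the distance of the log2 ratio from those of probes of similar brightness, in their standard deviations. By these limits 1 of the 38 measured members was higher, *Wnt10a*, where 1.34% of the 13989 measured genes of the array were called higher. Again 1 of the 38 was lower, *Nkd2*, where 2.05% of all measured genes were. Both counts are near the background of the array. Taken singly, 2 members passed the upper Z-score limit (2.39% of all measured genes did) and 2 the lower ratio limit (6.14%). The median log2 ratio of the members, ALDH-positive over ALDH-negative, was 0.047 beside 0.045 over all measured genes, and 55.3% of the members lay above 0 beside 60.6% of all genes. The spread was somewhat wider among the members, with quartiles of -0.10 and 0.26 against -0.083 and 0.18. Against the scanner's own error of each ratio, 14 members (36.8%) lay further from 0 than that error, 11 above and 3 below, where 33.1% of all measured genes did. The split above and below was not taken over all genes, so it has no background beside it.

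**Figure D1:**
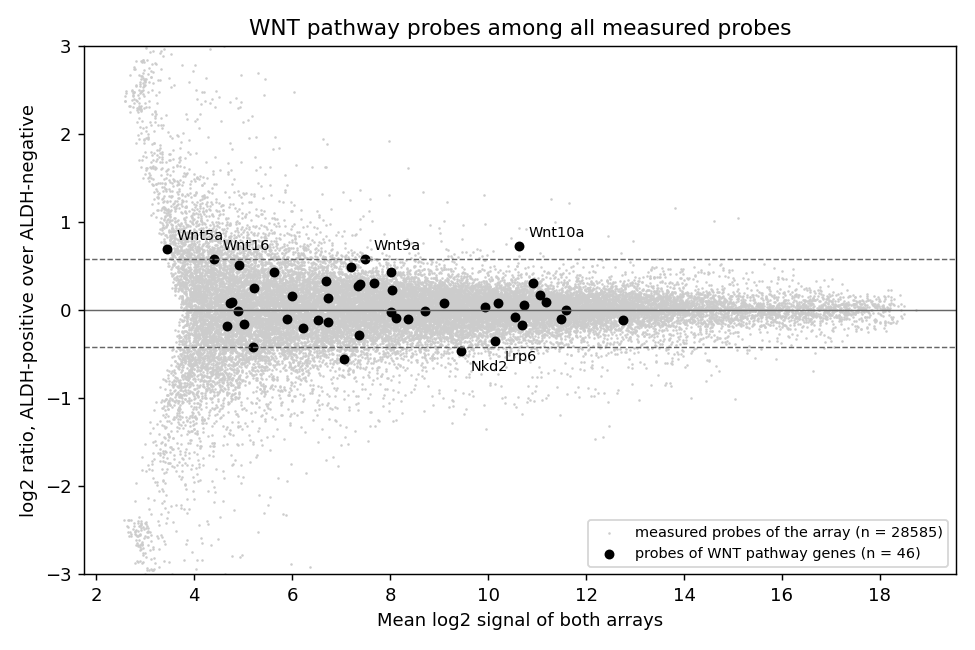
Each grey point is 1 of the 28585 measured probes, with the mean log2 signal of both arrays on the horizontal axis and the log2 ratio of ALDH-positive over ALDH-negative cells on the vertical axis, and black points are the 46 measured probes of WNT pathway genes. Dashed lines mark the ratio limits of 1.5 and 0.75, and 275 probes with a log2 ratio beyond 3 in either direction are outside the plot. *Wnt10a* (0.73) stands above its neighbours in brightness and *Nkd2* (-0.46) just past the lower limit, while most black points lie within the grey cloud.

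The WNT ligands were the role with the widest range. *Wnt10a*, a ligand of the β-catenin branch known from epithelial appendages and the mammary gland, read 1235 and 2043. Its log2 ratio was 0.73 ± 0.20, where the error combines what the scanner gives for both signals. Its Z-score was 3.67, the highest among the members, and it was the only member past both upper limits. The value rests on 1 probe, printed as 1 spot per array, with no other probe beside it. *Wnt9a*, a ligand known from joint formation, read 147 and 218 (log2 ratio 0.58 ± 0.21). Its Z-score of 2.01 passed the limit and its ratio of 1.49 just missed the 1.5 required, so it stood immediately outside the call. With no background correction its ratio was 1.33 and its Z-score 1.95. With each array shifted to its 75th percentile its Z-score was 1.93. None of the alternative processing choices called it. Some of them could not, since they kept its ratio at 1.49 or left its probe out. *Wnt16*, a ligand studied in bone, reached the same log2 ratio of 0.58 from much dimmer signals of 17.3 and 25.7, with a wider error of 0.36 and a Z-score near that of its neighbours (0.65). *Wnt5a*, the main ligand of the β-catenin-independent branch, cleared background in the ALDH-positive sample alone, at 13.9 against 8.61. Its fold is a bound of 1.06-fold higher that leaves out the scanner error, which was 0.55 in log2 ratio.

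The other 6 measured ligands stayed within their scanner error of 0. *Wnt1*, the founding member of the family, had signals of 531 and 562 (log2 ratio 0.08 ± 0.20). Its other probe was not above background on either array. *Wnt10b*, a ligand of mammary progenitors, had 110 and 101 (-0.13 ± 0.22). *Wnt5b*, a close relative of *Wnt5a*, had 80.4 and 69.6 (-0.21 ± 0.22), the lowest ratio among the ligands. The log2 ratios of *Wnt7a*, *Wnt11* and *Wnt7b* were 0.08, -0.01 and -0.07. Across the role, 6 of 10 measured ligands lay above 0 and the median was 0.08, beside 60.6% and 0.045 over all measured genes.

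Several *Wnt* genes lie beside each other in the mouse genome as old duplicated pairs, and the pairs could be compared by the probe positions of the array design (NCBI37). The probe of *Wnt10a* on chromosome 1 lay 19.2 kb from that of *Wnt6*, which was not measured in either population. *Wnt9a* on chromosome 11 lay 85.4 kb from *Wnt3a*, again not measured. The pair *Wnt1* and *Wnt10b* on chromosome 15, 22 kb apart, was measured on both sides with the near-zero ratios given above, and neither *Wnt3* nor *Wnt9b*, 90.2 kb apart on chromosome 11, was measured. In no pair were both genes measured with a ratio beyond the scanner error.

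**Figure D2:**
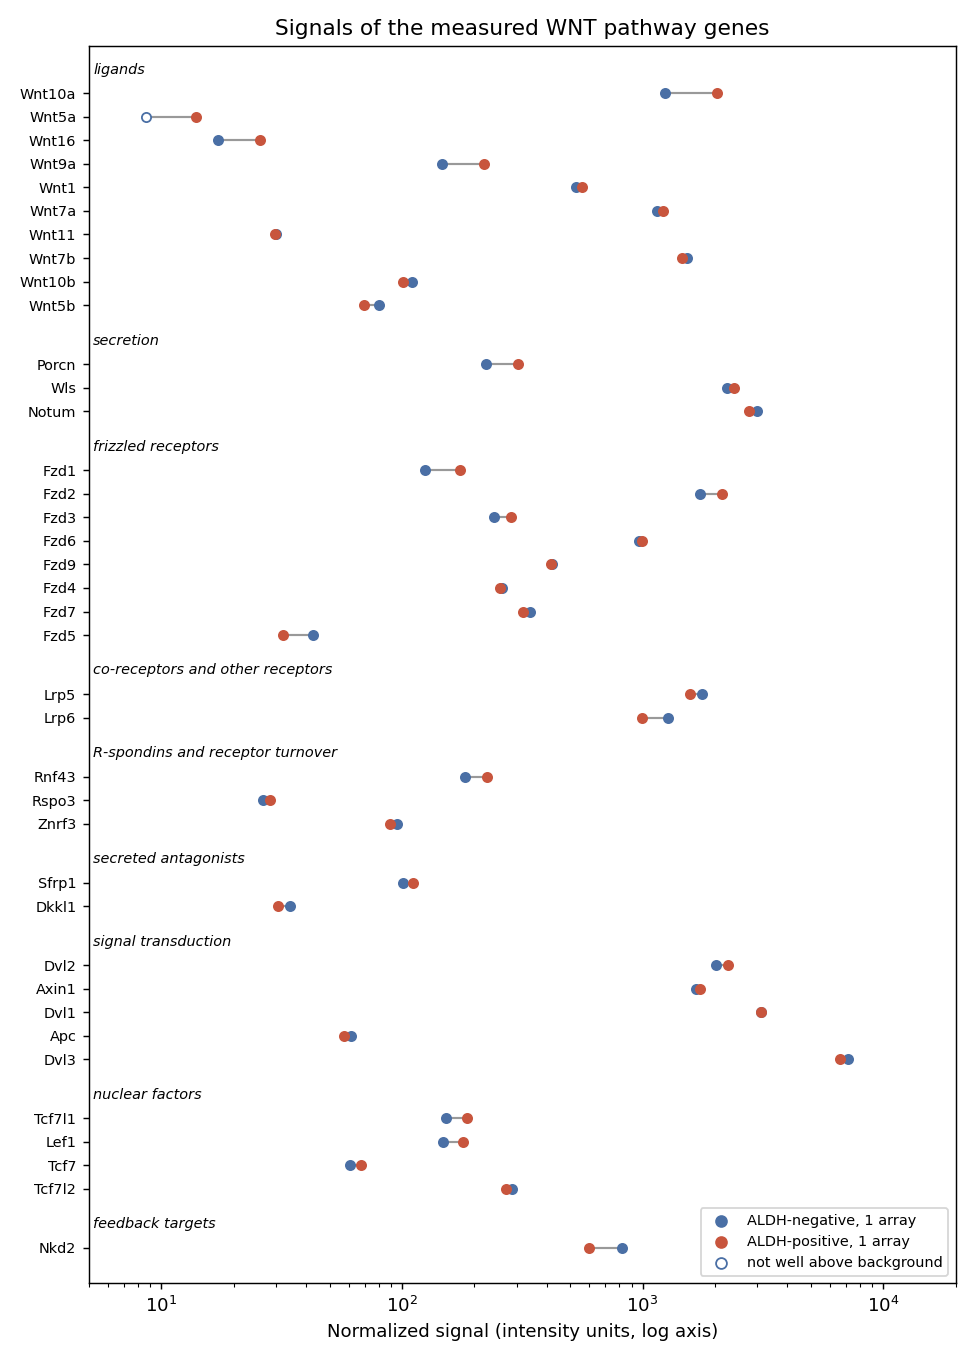
Normalized signal of each measured WNT pathway gene on a log axis, grouped by role, with 1 array per population (blue, ALDH-negative; red, ALDH-positive) joined by a line. The longest lines among the bright genes are those of *Wnt10a* (1235 to 2043) and *Nkd2* (824 to 597), the open point of *Wnt5a* was not well above background, and the horizontal positions of different genes are not comparable because each probe has its own brightness.

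WNT ligands need a lipid group and a carrier to leave the cell. *Porcn*, the acyltransferase that attaches the lipid, read 224 and 303 (log2 ratio 0.44 ± 0.21). This was more than 2 errors from 0, with a Z-score of 1.52 and a ratio of 1.35 that left it uncalled. *Wls*, the carrier that brings the ligands to the surface, and *Notum*, an enzyme that removes the lipid again, had log2 ratios of 0.09 and -0.10, within their errors.

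Among the frizzled receptors the values ran in both directions, 4 above and 4 below 0, with a median of 0.02. *Fzd1* had the highest ratio, at 125 and 175 (log2 ratio 0.49 ± 0.21, Z-score 1.54). *Fzd2* followed with 1730 and 2146 (0.31 ± 0.20), and *Fzd3* with a log2 ratio of 0.23 ± 0.21. *Fzd5* was the lowest, with 42.7 and 31.9 (-0.42 ± 0.25). Its ratio of 0.748 narrowly passed the lower limit, and its Z-score of -0.82 did not. Its other probe read 25.8 and 27.2 (0.08 ± 0.30), and the value of the gene was -0.17 with the median over both probes or with no background correction. *Fzd6*, *Fzd9*, *Fzd4* and *Fzd7* had log2 ratios of 0.04, -0.005, -0.03 and -0.10, all within the scanner error.

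The probes of *Fzd2* and *Fzd7* are shown because they read nearly the same stretch of 2 related receptors. Over a stagger of 10 bases they matched at 42 of 50 bases (84.0%), and of 3384 pairs of probes for different members no other pair matched at 40 or more, with a median of 20. Their place within the transcripts was not taken from an annotation, and capitals mark the matching bases, 5′ to 3′, at chr11:102467613-102467672 (plus strand) for *Fzd2* and chr1:59541367-59541426 (plus strand) for *Fzd7*, NCBI37.
Fzd2: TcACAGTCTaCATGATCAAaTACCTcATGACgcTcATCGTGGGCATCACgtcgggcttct
Fzd7: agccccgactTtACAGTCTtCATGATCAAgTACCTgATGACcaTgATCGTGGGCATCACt
These probes had log2 ratios of 0.31 and 0.33, whereas the brighter probe of *Fzd7*, elsewhere in the gene, had -0.10 ± 0.20. How far transcripts of one receptor bind the probe of the other was not tested.

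The co-receptors *Lrp5* and *Lrp6*, which pair with frizzled to start the β-catenin branch, both lay below 0. *Lrp6* read 1280 and 1000 (log2 ratio -0.36 ± 0.20). Its Z-score of -1.90 and ratio of 0.78 were just short of both limits. Its other probe read 161 and 110 (-0.55 ± 0.21), which passed the ratio limit and, at a Z-score of -1.73, missed the other. The sequence of that probe is shown here because it gave the lower of both *Lrp6* ratios (chr6:134404723-134404782, minus strand, NCBI37).
Lrp6: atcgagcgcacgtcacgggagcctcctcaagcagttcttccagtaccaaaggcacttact
*Lrp5* had a log2 ratio of -0.17 ± 0.20.

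R-spondins raise the receptor level at the surface by removing the ubiquitin ligases RNF43 and ZNRF3, which are themselves induced by the pathway. *Rnf43* read 182 and 226 (log2 ratio 0.31 ± 0.21), while *Znrf3* had -0.11 ± 0.21. *Rspo3*, the single measured R-spondin, had 0.09 ± 0.32. The closely related ligases thus lay on opposite sides of 0, neither far beyond the error.

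Only *Sfrp1* and *Dkkl1* were measured among the 10 genes grouped as secreted antagonists, and both were within their errors. *Notum*, which removes the lipid of the ligands, was grouped above instead. *Dkkl1*, which encodes soggy, a relative of the Dickkopf family, had signals of 34.1 and 30.6 (log2 ratio -0.16 ± 0.29). *Sfrp1*, a decoy that holds ligands in solution, had 0.14 ± 0.21.

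All 5 transducers were measured, and all lay within the scanner error. *Dvl2*, 1 of the dishevelled scaffolds beneath the receptors, had the value farthest from 0, with 2014 and 2276 (0.18 ± 0.20). *Axin1*, *Dvl1*, *Apc* and *Dvl3* had log2 ratios of 0.05, 0.004, -0.10 and -0.11.

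**Figure D3:**
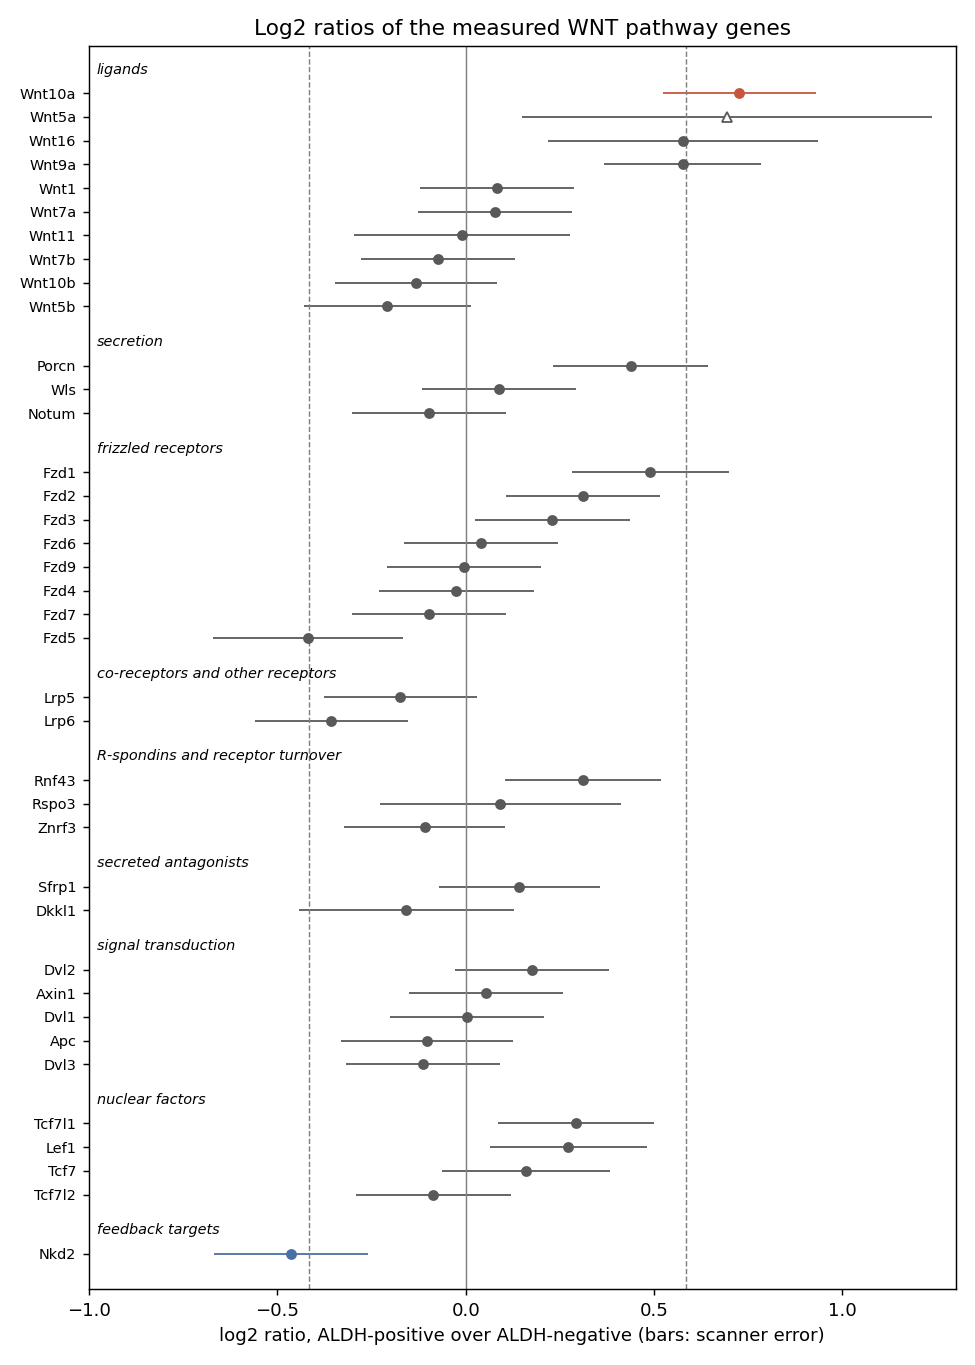
Log2 ratio of ALDH-positive over ALDH-negative cells for each measured WNT pathway gene by role, with bars for the scanner error of both arrays combined, which does not include the spread between cultures. Dashed lines mark the ratio limits of 1.5 and 0.75, red and blue mark the genes called higher (*Wnt10a*) and lower (*Nkd2*), and the open triangle is *Wnt5a*, dim in the ALDH-negative sample, whose fold is only a bound.

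The nuclear factors bind DNA and take up β-catenin at target genes. *Tcf7l1*, which mostly represses, read 152 and 186 (log2 ratio 0.29 ± 0.21). *Lef1* had 0.27 ± 0.21 on its brighter probe and 0.43 ± 0.24 on the other, and *Tcf7* had 0.16 ± 0.22. The median of the 4 factors was 0.22 with no gene called, beside 0.045 over all measured genes. With no background correction it was 0.13, beside 0.038 over all measured genes. With each array shifted to its 75th percentile it was 0.16 beside 0.091.

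*Tcf7l2* was the 1 member whose probes disagreed by more than 0.5 in log2 ratio. Its brightest probe had signals of 287 and 270 (-0.09 ± 0.21). Another probe (chr19:55994029-55994088, plus strand, NCBI37), had 181 and 149 (-0.28 ± 0.21) and is printed because it gave the lowest value.
Tcf7l2: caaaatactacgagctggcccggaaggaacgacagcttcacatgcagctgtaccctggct
The remaining, dim probe had 25.4 and 36.1 (0.51 ± 0.31), so the probes differed by 0.79. The probes name different transcripts of the gene, whose levels were not measured apart.

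Of the 4 genes grouped here as feedback targets, *Axin2*, *Nkd1*, *Nkd2* and *Sp5*, only *Nkd2* was measured. *Rnf43*, *Znrf3* and *Notum*, also induced by the pathway but grouped above, had log2 ratios of 0.31, -0.11 and -0.10. *Nkd2* encodes a dishevelled-binding inhibitor of the pathway, and it read 824 and 597 (log2 ratio -0.46 ± 0.20). The ratio of 0.72 and the Z-score of -2.06 passed both limits narrowly. Its other probe was dim, with 27.0 and 23.9 (-0.18 ± 0.30), and did not pass. The call of *Nkd2* was lost under 7 of 11 alternative processing choices, among them a shift of each array to its 75th percentile (ratio 0.76). The call of *Wnt10a* was lost under 1, a Z-score taken over all probes at once, though some of the 11 could not change it.

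**Figure D4:**
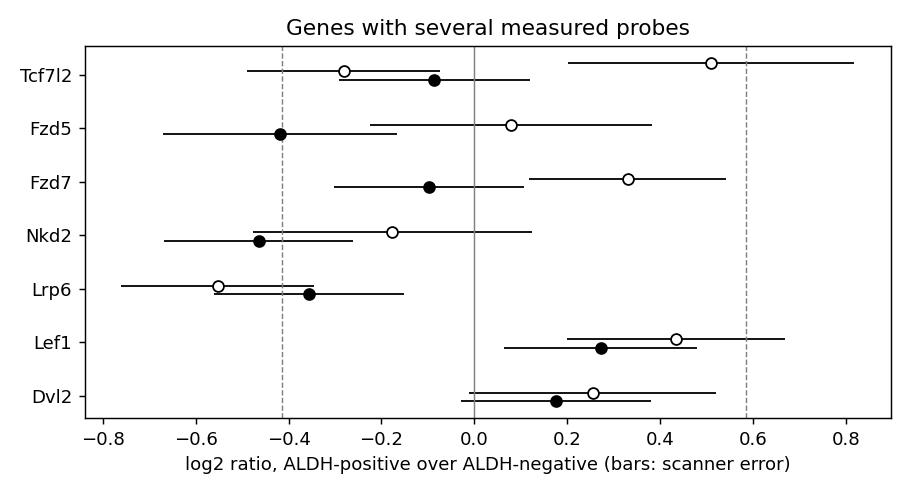
Log2 ratio of ALDH-positive over ALDH-negative cells for every measured probe of the 7 members with more than 1 measured probe. The filled point is the probe brightest in ALDH-negative cells, open points are the others and bars are scanner errors; *Tcf7l2* spans -0.28 to 0.51, *Lrp6* lies below 0 on both probes and *Lef1* above 0 on both.

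The E-box, the sequence CACGTG, is the element bound by the circadian factor CLOCK, whose role in ALDH-positive 4T1 cells the study addressed. The 250 bases before the annotated start were searched in the RefSeq promoters (GRCm38.p6) of the 44 members present in that table, 23 of them measured. The E-box, which reads the same on both strands, occurred in 6 members (13.6%), where 6.86% of all genes and 6.02% of all promoters in the table held it. The measured ones were *Dvl2* with 3 copies (log2 ratio 0.18), *Fzd9* (-0.005), *Lef1* (0.27) and *Wnt9a* (0.58), and the others were *Rspo4* and *Wif1*. The TCF/LEF element, CTTTGAT on either strand, shares no base with the E-box matches and occurred in 3 members (6.82%; 3.72% of genes and 3.21% of promoters), *Sp5*, *Wnt11* and *Wnt5b*. A match is a run of letters and not a shown binding site. The promoters of *Wnt9a* (chr11:59306680-59306929, plus strand) and *Lef1* (chr3:131156044-131156293, plus strand) are printed since they are the E-box members with the highest ratios, with the E-box in capitals.
Wnt9a: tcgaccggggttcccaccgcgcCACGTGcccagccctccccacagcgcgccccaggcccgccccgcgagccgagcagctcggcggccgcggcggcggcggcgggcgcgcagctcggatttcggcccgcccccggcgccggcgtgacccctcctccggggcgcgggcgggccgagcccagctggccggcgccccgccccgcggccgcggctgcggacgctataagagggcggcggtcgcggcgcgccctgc
Lef1: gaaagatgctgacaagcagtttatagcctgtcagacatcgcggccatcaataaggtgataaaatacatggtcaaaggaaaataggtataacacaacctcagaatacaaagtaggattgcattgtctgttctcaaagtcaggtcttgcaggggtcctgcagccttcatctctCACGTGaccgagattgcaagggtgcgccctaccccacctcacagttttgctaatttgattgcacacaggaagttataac
*Wnt10a* and *Lrp6* are not in the table.

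The pathway genes that the choice by symbol left out were read from lists of 60 genes, of which 48 were measured. None was called higher and 1 was called lower, where 1.34% and 2.05% of all measured genes were. Of the 48, 29 lay above and 19 below 0, with a median of 0.06. Over all measured genes 60.6% lay above 0 and the median was 0.045, so these lists were near the background of the array. β-catenin itself, *Ctnnb1*, had a log2 ratio of -0.08, and the list of the β-catenin core, *Ctnnb1* included, had a median of 0.05 over 18 of 19 genes. Among those above background on both arrays, *Amer1*, a scaffold of the β-catenin destruction complex, lay farthest from 0 at 437 and 554 (0.34 ± 0.20). *Tle4*, a co-repressor, was not above background in the ALDH-negative sample, at 12.8 and 24.4. Its fold is a bound of 1.86-fold higher that leaves out the scanner error (log2 ratio 0.93 ± 0.42, Z-score 0.91). Among further receptors and antagonists, 8 of 15 were measured with a median of 0.01, and the farthest from 0 of those above background on both arrays was *Gpc4*, a cell-surface proteoglycan, at 99.5 and 126 (0.34 ± 0.21). *Lgr4*, an R-spondin receptor, was likewise dim in the ALDH-negative sample, at 16.1 and 31.9. Its dim signal exceeded the lowest signal well above background, so its 1.99-fold is the plain ratio of the signals. It again leaves out the scanner error (log2 ratio 0.99 ± 0.38, Z-score 1.07).

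The planar polarity genes, which serve the β-catenin-independent branch, had 6 of 8 measured genes above 0 and a median of 0.21. Over all measured genes 60.6% lay above 0 and the median was 0.045. *Celsr1*, an atypical cadherin of this branch, had 1131 and 1542 (0.45 ± 0.20) at a Z-score of 2.39, and was kept from the call by the ratio limit. *Prickle2*, also of this branch, was not above background in the ALDH-positive sample, at 20.6 and 10.1. Its fold is a bound of 1.63-fold lower that leaves out the scanner error (log2 ratio -1.03 ± 0.53, Z-score -0.83). Further targets of the pathway had a median of -0.02 over 14 of 16 genes. *Jun*, an AP-1 factor, was the gene called lower, at 10119 and 7546 (-0.42 ± 0.20, Z-score -2.34). It passed the ratio limit narrowly, with a log2 ratio of -0.423 against -0.415. Its call under the other processing choices is not given here. *Ephb3*, a guidance receptor, had 17996 and 24204 (0.43 ± 0.20), and *Myc* and *Ccnd1*, the target genes most often cited, had 0.02 and -0.14.

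**Figure D5:**
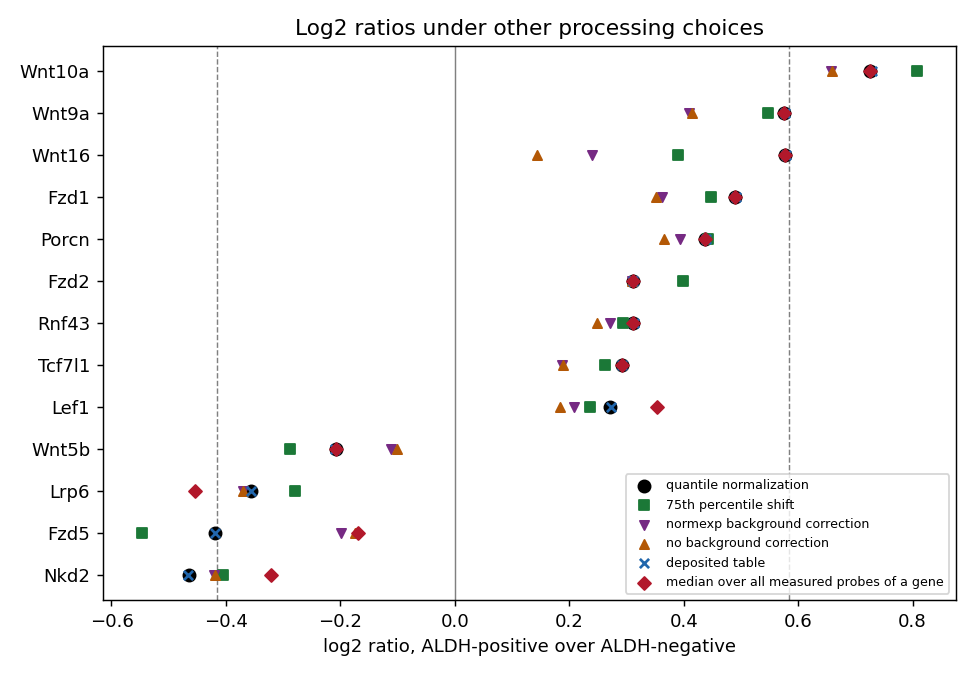
Log2 ratio of ALDH-positive over ALDH-negative cells for 13 members (horizontal axis) under quantile normalization (black) and 5 other processing choices. *Wnt10a* stayed past the upper dashed limit (ratio 1.5) in each of them, from 0.66 to 0.81, though the median over probes could not move its 1 probe. *Nkd2* ran from -0.47 to -0.32 about the lower limit (ratio 0.75), and the dim *Wnt16* moved most among the ligands shown.

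On the arrays 48.5% (ALDH-negative) and 49.4% (ALDH-positive) of probes were well above background, and probes printed 10 times had a median SD of 0.057 and 0.048 in log2 signal. Epithelial markers were all measured, with *Krt14* called higher (695 and 1366, log2 ratio 0.98) and summed signals of 324989 and 368187. Of 6 leukocyte markers 4 were measured, with *Ptprc* and *Adgre1* not above background and summed signals of 9951 and 6261. *Itgam* was called lower (7301 and 3795, log2 ratio -0.94) and made up most of the difference in that sum, *Cd3e* and *Csf1r* had -0.47 and -0.34, and *Cd68* lay above 0 (log2 ratio 0.44, Z-score 2.34). Fibroblast markers were measured for 3 of 6, with *Col3a1*, *Dcn* and *Lum* not above background, and endothelial markers for 2 of 4, with *Cdh5* and *Tek* not above background, *Kdr* called lower (-0.43) and *Pecam1* at 0.21 ± 0.31. Of 9 ALDH isoforms active in the ALDEFLUOR assay 7 were measured and none was called, with *Aldh5a1* highest at 0.23. The part of these differences in the ratios of the WNT genes was not tested.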

How the data were processed

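The deposited scanner files of both arrays (SurePrint G3 Mouse GE 8x60K v2, 1 colour, Cy3) held intensity values per spot, which the authors extracted with Feature Extraction from Agilent (10.7.1.1 by the file headers, 9.5.1.1 by the submitters' notes). The scanner's processed signal, already background-subtracted, was used. The authors also deposited a table of normalized values, from which member log2 ratios differed by at most 0.0028. From 62976 spots per file, 3671 control spots and 135 (ALDH-negative) and 116 (ALDH-positive) outlier spots were left out, the signal was floored at 1, log2 was taken, repeated spots were averaged and both arrays were quantile-normalized, the normalization named in the study's methods. Before normalization the median log2 ratio of measured probes was 0.49, and afterwards it was 0.015.

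A probe counted as measured when it was well above background on at least 1 array. The brightest measured probe by mean log2 signal stood for its gene. Scanner errors of both signals were combined into that of the ratio, which had a median of 0.21 and takes no account of the spread between cultures. For bright probes this error was close to 0.20 whatever the gene. Repeated spots gave an SD of 0.075 for a log2 ratio. The limits on ratio and Z-score are those of the methods, which do not define the Z-score. Here it was taken against the 250 probes on either side in mean signal. With 1 array per population no test was run, and precision is limited by their number. Where 1 array was below background the fold is a bound against the higher of the dim signal and the lowest signal well above background. Where the dim signal was the higher, as for *Lgr4*, this is the plain ratio. Such a bound leaves out the scanner error.

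Values were given for called members, for the 4 largest and 4 smallest log2 ratios, for the gene farthest from 0 in each role, for neighbouring *Wnt* pairs and for genes whose probes differed by 0.5 or more, and in the other lists for called genes and the gene farthest from 0. In those lists the gene farthest from 0 was taken among genes above background on both arrays, with bounds for the others. *Myc*, *Ccnd1*, *Ctnnb1* and marker genes were added after their values were seen, as were the signals of *Wnt5a*, the pair of *Fzd2* and *Fzd7* probes and other probes of *Lrp6*, *Lef1*, *Fzd5* and *Nkd2*. A marker gene of the leukocyte list is not reported here. The members, lists and limits were chosen with earlier results of these data known. Gene names are those of the array files, and 80 of the 83 member probes matched RefSeq by accession with no symbol that differed. Probe positions are those of the array design (NCBI37). The alternatives tried were other normalization, background correction, probe choice, array positions, Z-score windows and ratio limits, 11 in all. Tools were Python 3.11.15, numpy 2.4.6, pandas 2.3.3, matplotlib 3.10.9, R 4.3.3 and limma 3.58.1 (normexp with an offset of 50).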

Additional observations from a re-analysis of the deposited data

How the results depend on the processing

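*Wnt10a* was called higher under 10 of the 11 alternatives. The median over probes and the changed ratio limit could not alter its call. It has 1 probe, and the upper limit was already 1.5. With the Z-score taken over all probes, 0 members were higher and 0 lower, where 1.5% and 1.32% of all measured genes were called. The count of lower members, which rests on *Nkd2* alone, was 1 in the deposited table, with probes above background on both arrays, without the last rows and columns of the array and with 100 probes on either side in the Z-score. It was 0 with the 75th percentile shift, with normexp, with no background correction, with the median over the probes of a gene, with 500 probes on either side and with a ratio limit of 1.5 in both directions. Over all measured genes, 188 were higher, but 101 with normexp and 91 with no background correction, and 287 were lower, but 184 with the Z-score over all probes. The median log2 ratio of the members ran from 0.034 to 0.082. Z-score windows and ratio limits leave log2 ratios unchanged. So does the median over probes for genes with 1 measured probe, and the deposited table moved member values by at most 0.0028. Of 258 values of the 38 genes under the choices other than windows and limits, 254 moved by less than their own scanner error. The exceptions were *Wnt5a* (0.14 with normexp, 0.10 with no background correction), *Wnt16* (0.14 with no background correction) and *Fzd7* (0.12 with the median over its probes). The log2 ratio of *Dvl1*, *Fzd7*, *Fzd9*, *Rspo3*, *Wnt11* and *Wnt7b* changed sign under at least 1 of these choices. The median of the R-spondin group was -0.066 with the 75th percentile shift. The median of the nuclear factors was 0.12 with normexp, and medians of other roles moved as well. The alternatives for medians by role and by list were added after the data were seen. The causes were not tested. Without the last rows and columns of the array 31 of the 38 members had a value. *Wnt9a*, *Wnt7a*, *Wnt10b*, *Axin1*, *Dkkl1*, *Sfrp1* and *Fzd4*, measured at that edge, had none. No paired analysis was possible because neither population had a replicate.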
